A study of Mus musculus with 12 samples.

Results

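The 10 goblet cell and mucus genes Muc2, Tff3, Fcgbp, Clca1, Agr2, Zg16, Spdef, Atoh1, Muc13 and Retnlb were followed in the duodenum of mice treated with corticosterone (CORT), the main glucocorticoid of rodents. They were chosen by name, and all 10 were found among the 55416 genes of the intestine table. There were 3 libraries, labelled as biological replicates, of duodenum from CORT-treated and 3 from vehicle-treated (Veh) male C57BL6/J mice, aged 8 weeks when daily subcutaneous injections began, which lasted 8 weeks. The other 6 of the 12 libraries were of liver. The CORT dose was 40 mg/kg, and the vehicle held DMSO and Tween in sterile water. The RNA-seq values are TPM, transcript abundances scaled for transcript length and to a fixed total per library. They do not keep the sequencing depth, so no counting error accompanies them.

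Goblet cells are the secretory cells of the intestinal epithelium that make the mucus gel. They arise from progenitors in which Notch signaling is low and the transcription factor Atoh1 is on, and Spdef acts later in their maturation. The gel-forming mucin Muc2 is folded in the endoplasmic reticulum with the help of Agr2, and Fcgbp, Clca1, Zg16 and Tff3 are secreted with it. Muc13 is a mucin anchored in the cell membrane, and Retnlb encodes RELM-beta, a goblet cell protein known to be induced by type 2 cytokines during worm infection. The libraries are of whole tissue, so fewer goblet cells and less RNA per goblet cell cannot be told apart.

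The labels were checked against marker genes. The ileal genes Fabp6 and Slc10a2 reached at most 0.73 and 0.6 TPM. Of 7 gastric genes, Muc5ac and Gkn2 were listed at 0 in all 6 libraries, Gkn1 and Atp4a reached at most 0.05 and 0.73 TPM, and Tff1 was at 2.14 TPM in Veh2 and listed at 0 elsewhere. Gkn3 and Pgc were present in every library, at 3.8 to 18.5 TPM and 1.7 to 3.9 TPM, with Gkn3 highest in Veh2. Fkbp5, a gene induced by glucocorticoids, was at 379, 281 and 252 TPM with CORT and 14.0, 8.68 and 23.3 TPM with Veh. The Veh libraries differed among themselves. The summed level of 19 pancreatic acinar genes was 38926 TPM in Veh2 and 31466 TPM in Veh3, against 205 TPM in Veh1 and 158 to 361 TPM with CORT. Veh2 stood apart in another set of genes, to which Retnlb belongs, described further on.

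None of the 10 genes was called as changed by CORT. Calls required limma's Benjamini-Hochberg adjusted p to be at most 0.05 and the fold to exceed 1.5. The test used log2(TPM + 1) and covered the 13607 genes whose mean reached 1 TPM with CORT or with Veh. Of all genes tested, 2.15% were called. At an unadjusted p under 0.05, 1 of the 10 genes passed (Muc2), against 19.2% of all genes tested. Full separation of the CORT from the Veh libraries was seen for 3 of the 10 genes (Muc2, Spdef and Retnlb), against 26.4% of all genes tested. Retnlb was tested only because of its level in Veh2, and without it the count was 2 of 9. Neither count stood out from the shares of all genes. With 3 libraries against 3, an exact permutation test of a single gene cannot give a two-sided p below 0.1. The median log2 fold change of the 10 genes was 0.17 and that of all genes tested -0.012.

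**Figure D1:**
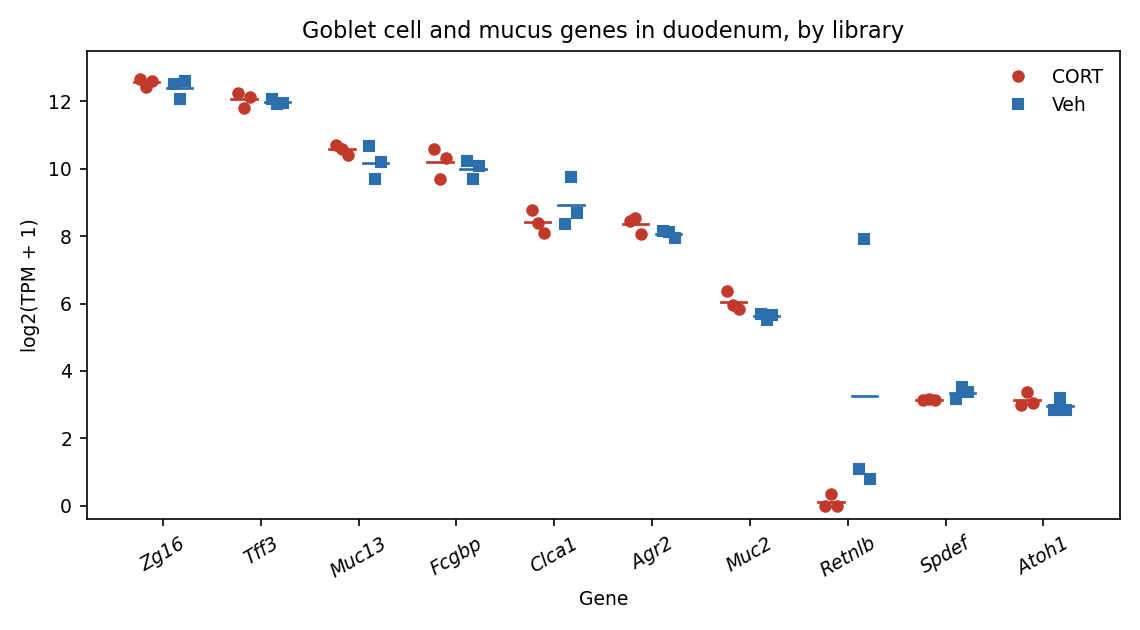
Level of each gene as log2(TPM + 1) in each duodenum library, ordered by mean level. Circles are CORT libraries, squares are Veh libraries, and horizontal lines are the group means on this scale. The 3 CORT and 3 Veh values overlap for 7 of the 10 genes, and Retnlb has a single high value, 239 TPM in Veh2.

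The proximal promoters of Muc2 and Spdef are shown because these were the members with no overlap between groups for which the reference table held a promoter. Each is the 250 bases before the RefSeq start (build GRCm38.p6, whereas the submitters' processing notes name GRCm39), read 5′ to 3′ on the strand of the gene. Muc2 lies at chr7:141690090-141690339 on the plus strand and Spdef at chr17:27728952-27729201 on the minus strand. Capitals mark CANNTG, the E-box letters bound by factors of the Atoh1 class, and TGTTCT or its reverse complement AGAACA, a hexamer of the glucocorticoid response element.
Muc2: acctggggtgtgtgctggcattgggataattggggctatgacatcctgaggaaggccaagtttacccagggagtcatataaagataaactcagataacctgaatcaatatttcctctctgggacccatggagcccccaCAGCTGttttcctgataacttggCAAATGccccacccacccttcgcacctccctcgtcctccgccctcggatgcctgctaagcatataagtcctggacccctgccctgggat
Spdef: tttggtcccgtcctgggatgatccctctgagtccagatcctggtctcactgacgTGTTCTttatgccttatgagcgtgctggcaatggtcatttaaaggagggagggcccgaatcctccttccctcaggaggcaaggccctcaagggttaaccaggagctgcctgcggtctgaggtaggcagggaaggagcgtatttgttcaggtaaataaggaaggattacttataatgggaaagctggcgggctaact
The Muc2 window held 2 E-boxes and 0 such hexamers, and the Spdef window 0 E-boxes and 1 hexamer. Of 32851 promoter windows of the same length, 66.2% held an E-box and 16.1% the hexamer on either strand. Such a match describes the letters in the window and is not a site of binding. Promoters were held for 6 of the 10 genes.

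Muc2 (ENSMUSG00000025515) encodes the gel-forming mucin of the intestine, a very long protein that polymerises into the mucus net. It was at 81.3, 60.6 and 56.1 TPM with CORT and 50.9, 44.3 and 49.7 TPM with Veh. Every CORT value lay above every Veh value, but the lowest CORT library was only slightly above Veh1. The group values were 66.0 ± 13.4 TPM (SD, n = 3) and 48.3 ± 3.55 TPM (SD, n = 3). The log2 fold change was 0.43 (standard error 0.17, limma adjusted p = 0.225), with a 95% confidence interval of the fold from 1.02 to 1.76. Muc2 was therefore not called, and the exact permutation test gave p = 0.1. Without CORT1, the highest library, the log2 fold change was 0.27.

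Muc13 (ENSMUSG00000022824) is a transmembrane mucin of the apical surface that enterocytes also express. It was at 1674, 1548 and 1359.67 TPM with CORT and 1629, 821 and 1163 TPM with Veh. Veh1 lay within the range of the CORT libraries and Veh2 and Veh3 lay below it. The log2 fold change was 0.39 (standard error 0.25, limma adjusted p = 0.441). It was 0.14 without Veh2. Without Veh2 and Veh3 together, which leaves Veh1 as the only Veh library, it was -0.098, and with all 6 libraries but the acinar genes removed it was 0.36.

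Zg16 (ENSMUSG00000049350), a lectin-like protein of mucus that binds Gram-positive bacteria, was the most abundant of the 10 genes and ranked 20 among all genes tested by mean level. Its values were 6499, 5529 and 6174 TPM with CORT and 5831, 4313 and 6261 TPM with Veh. Only Veh2 lay below every CORT library. Veh2 and Veh3, which held acinar transcripts, had the lowest and the second highest Zg16 value, and the part of acinar tissue in the Zg16 level was not tested. The log2 fold change was 0.16 (standard error 0.19, limma adjusted p = 0.663).

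Tff3 (ENSMUSG00000024029), a trefoil peptide that goblet cells secrete with mucin and that aids epithelial repair, followed in level with 4850.05, 3557 and 4478 TPM with CORT. In the Veh libraries it was at 4255, 3852 and 3967 TPM. The CORT values spanned the whole Veh range. Its log2 fold change was 0.083 (standard error 0.17, limma adjusted p = 0.814), with a 95% confidence interval of the fold from 0.807 to 1.39. An increase or decrease of over 1.5 times thus lay outside the interval for Tff3.

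Fcgbp (ENSMUSG00000047730), a large protein with repeated von Willebrand domains that is part of the mucus gel, was at 1521, 827 and 1287 TPM with CORT. It was at 1201, 831 and 1075 TPM with Veh, so CORT2 held the lowest value and CORT1 the highest. The log2 fold change was 0.20 (standard error 0.26, limma adjusted p = 0.705). Across the 6 libraries Fcgbp followed Tff3, with a Pearson correlation of 0.96 between their log2(TPM + 1) values. This was the highest among the 45 pairs of the 10 genes, and it is a description over libraries that share their scaling.

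Agr2 (ENSMUSG00000020581), a disulfide isomerase of the endoplasmic reticulum needed to make Muc2, was at 352, 368 and 265 TPM with CORT and 283, 279 and 243 TPM with Veh. CORT3 lay within the Veh range and the other CORT libraries above it. The log2 fold change was 0.28 (standard error 0.16, limma adjusted p = 0.407), and the 95% confidence interval of the fold ran from 0.926 to 1.59.

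Clca1 (ENSMUSG00000028255), a metalloprotease that goblet cells secrete and that cleaves Muc2, was at 436, 333 and 273 TPM with CORT. In the Veh libraries it was at 325, 855 and 408 TPM. Veh2 stood far above the other libraries, and the remaining Veh values lay within the CORT range. The log2 fold change was -0.50 (standard error 0.37, limma adjusted p = 0.495). Without Veh2 it was -0.093, and without Veh2 and Veh3 together, against Veh1 alone, 0.071.

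**Figure D2:**
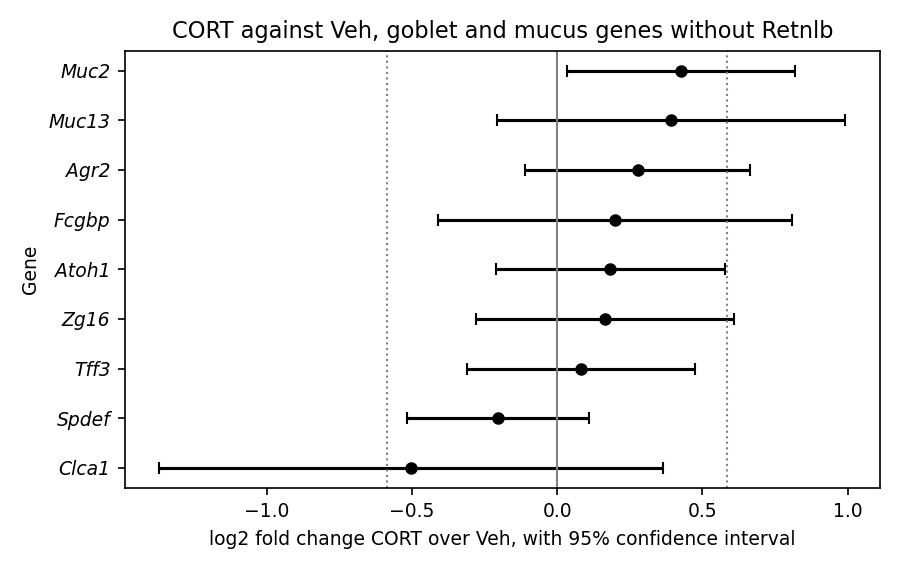
Log2 fold change of CORT over Veh in duodenum from limma, with its 95% confidence interval, for 9 genes (Retnlb is left out because its fold rests on 1 library). Dotted lines mark a fold change of 1.5 in either direction. The interval excludes 0 only for Muc2, before adjustment, and that of Clca1 is the widest, from -1.37 to 0.36.

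The lineage factors were low in level. Atoh1 (ENSMUSG00000073043), the transcription factor that sets the secretory fate, was at 7.02, 9.37 and 7.33 TPM with CORT and 6.17, 8.21 and 6.17 TPM with Veh. The groups overlapped, and the log2 fold change was 0.18 (standard error 0.17, limma adjusted p = 0.580). Spdef (ENSMUSG00000024215), an ETS factor that drives goblet cell maturation, was at 7.89, 7.94 and 7.87 TPM with CORT and 8.0, 10.5 and 9.46 TPM with Veh. The CORT values of Spdef lay close together, with an SD of 0.0361 TPM, and just below Veh1. Its log2 fold change was -0.20 (standard error 0.13, limma adjusted p = 0.442), and it was 0.020 when each library was divided by its summed level of 7 epithelial genes, a scaling that moved the median of all genes tested to 0.21.

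Ordered by mean level over the 6 libraries, the genes ran from Zg16 (5768 TPM) and Tff3 (4160.0 TPM) through Muc13 (1366 TPM) and Fcgbp (1124 TPM) to Clca1 (438 TPM), Agr2 (298 TPM) and Muc2 (57.1 TPM). Spdef (8.60 TPM) and Atoh1 (7.38 TPM) were lowest apart from Retnlb in most libraries. Zg16 was above Tff3, Tff3 above Muc13 and Agr2 above Muc2 in all 6 libraries. The order of Muc13 and Fcgbp, of Fcgbp and Clca1, of Clca1 and Agr2, and of Spdef and Atoh1 held in 5 of 6 libraries each. The mean of Retnlb, 40.2 TPM, gives no useful rank, since it was above Spdef in 1 of 6 libraries.

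The 10 genes together made up 1.55%, 1.23% and 1.40% of TPM in the CORT libraries and 1.36%, 1.13% and 1.32% in the Veh libraries. The ranges overlapped, with CORT1 highest and Veh2 lowest. Zg16 and Tff3 alone held between 72.6% and 77.6% of this sum. The 5 tested genes whose pattern over the 6 duodenum libraries was most like that of Muc2 were Zbtb12, Atxn2, Gm9803, Fry and Tfb1m, with Pearson correlations from 0.978 to 0.988. The other 9 members had correlations with Muc2 between -0.69 (Spdef) and 0.72 (Muc13).

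Retnlb (ENSMUSG00000022650) exceeded 2 TPM in 1 library. It was listed at 0 in CORT1 and CORT3, and was at 0.27 TPM in CORT2, 1.12 TPM in Veh1, 239 TPM in Veh2 and 0.75 TPM in Veh3. It passed the limit of 1 TPM only through Veh2. All CORT values lay below all Veh values, yet apart from Veh2 the levels were all close to 0. The test gave limma adjusted p = 0.381, and no fold is given because the fitted value rests on the pseudocount.

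Other genes were high in the same library. Clca1 was highest in Veh2, and Spdef as well. Ang4, an antimicrobial ribonuclease of Paneth and goblet cells, was at 2297 TPM in Veh2 and between 70.6 and 372 TPM in the other libraries. The mast cell protease genes Mcpt1 and Mcpt2 were at 142 and 57.1 TPM in Veh2, and their highest values elsewhere were 4.36 and 1.04 TPM. The gasdermin C genes Gsdmc4 and Gsdmc2 were at 201 and 71.7 TPM in Veh2, with highest values elsewhere of 9.56 and 3.04 TPM. In all, 39 genes had at least 5 TPM in Veh2 and at least 5 times the highest value of the other libraries, where the same rule found between 13 and 29 genes in each other library. Retnlb was the only member among the 39.

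The markers of tuft cells, the chemosensory cells of the epithelium, moved with Retnlb. The summed level of 7 tuft cell genes was 70.4 TPM in Veh2, between 17.7 and 22.1 TPM in the other Veh libraries and between 12.8 and 23.9 TPM with CORT. Dclk1, Trpm5, Pou2f3, Alox5 and Avil were highest in Veh2, Gfi1b was highest in CORT3 (2.94 TPM), and Il25 was listed at 0 in Veh2. The cytokine gene Il13 was at 0.39 TPM in Veh2 and listed at 0 in the other libraries, and Il4 was at 0.64 TPM in CORT2 and 0.41 TPM in CORT3 and listed at 0 in the others. Of 4 genes tested from the list of type 2 cytokines and their receptors, 0 were called by limma, and 0 had an unadjusted p under 0.05. That test compares CORT with Veh and does not describe Veh2. None of the 4 was highest in Veh2: Il33, Il13ra1 and Stat6 were highest in Veh1 and Il4ra in Veh3. Muc2, Zg16 and Muc13 were lowest in Veh2. The part of these genes in the Retnlb and Clca1 values was not tested.

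**Figure D3:**
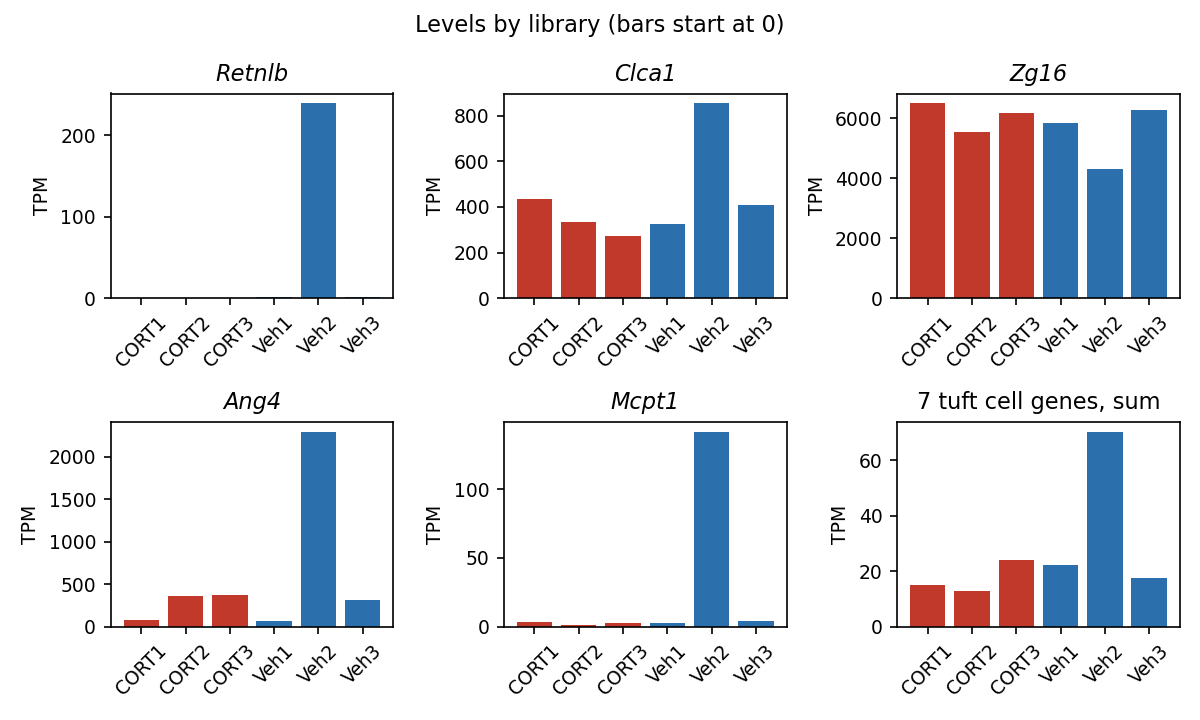
TPM in each duodenum library (red bars CORT, blue bars Veh, one bar per library, axes from 0) for Retnlb, Clca1, Zg16, Ang4, Mcpt1 and the sum of 7 tuft cell genes. Veh2 is highest in each panel except Zg16, where it is lowest at 4313 TPM.

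Other genes of the mucus pathway were read from the same fit. Of 20 further goblet cell genes, all 20 were tested and 0 were called, with a median log2 fold change of 0.014. Of the 20, 1 was higher (Foxa3) and 2 were lower (Creb3l1 and Scin) in every CORT library. Of all genes tested, 26.4% were without overlap, so this list did not stand out. Creb3l1, a transcription factor of secretory cells, was at 5.94, 3.87 and 5.26 TPM with CORT and 7.45, 9.36 and 8.30 TPM with Veh, without overlap (limma adjusted p = 0.111). Scin, an actin-severing protein, was at 15.3, 19.3 and 38.4 TPM against 61.1, 65.7 and 41.1 TPM, also without overlap (limma adjusted p = 0.122). Foxa3 was slightly higher in every CORT library, with 7.26 TPM as the lowest CORT and 6.95 TPM as the highest Veh value. Ang4 and Nlrp6 were the most abundant genes of this list. Nlrp6, an inflammasome sensor of the epithelium, had means of 103 ± 9.13 TPM with CORT and 102 ± 20.6 TPM with Veh (SD, n = 3 each), with overlap.

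Of 12 other mucins and trefoil factors, 10 were in the table, 5 were tested and 0 were called by limma. At an unadjusted p under 0.05, 2 of the 5 passed (Muc3 and Tff2), against 19.2% of all genes tested. Tff2 and Muc1 were tested only because of their levels in Veh2 and Veh3, so the p of Tff2 carries no weight. Muc3, a membrane mucin of the brush border, was at 1458, 872 and 1089 TPM with CORT and 366, 632 and 539 TPM with Veh. Every CORT library was above every Veh library, and the log2 fold change of 1.15 (limma adjusted p = 0.0804, standard error 0.26) missed the threshold. When each library was divided by its summed level of 7 epithelial genes, Muc3 was called as higher (log2 fold change 1.40, limma adjusted p = 0.0362), against a median of 0.21 over all genes tested in that fit. The epithelial sum was itself lower in every CORT library, so this scaling raised log2 fold changes in general. Reads can be split between Muc3 and its close relative Muc3a, which was at 20.8, 14.8 and 16.0 TPM with CORT and 9.18, 24.3 and 9.23 TPM with Veh. Tff2, the trefoil factor of duodenal Brunner glands, was at 144 TPM in Veh2, 145 TPM in Veh3 and 0.76 TPM in Veh1, and at most 0.18 TPM with CORT, so it was high in the same libraries as the acinar genes. Its neighbour Tff3 did not separate these libraries.

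O-linked sugar chains make up most of the mass of a mucin, and 22 of 25 enzymes of their synthesis were tested. St3gal4, a sialyltransferase that adds terminal sialic acid to galactose, was the 1 gene of this list that was called, and it fell. It was at 539, 549 and 1020.08 TPM with CORT and 2661, 1858 and 1842 TPM with Veh. The group values were 703 ± 275 TPM (SD, n = 3) and 2120.4 ± 469 TPM (SD, n = 3), a log2 fold change of -1.64 (limma adjusted p = 0.0421, standard error 0.29). The call was kept in 4 of 13 alternative fits, of which 1 was among the 6 that left out a library (without CORT3), and the log2 fold change stayed between -1.99 and -1.39. St3gal4 is not particular to goblet cells. Of the 22 enzymes, 4 were higher and 5, St3gal4 included, were lower in every CORT library, while 26.4% of all genes tested were without overlap. Among those not called, C1galt1, the core 1 synthase, was at 7.04, 11.8 and 7.16 TPM with CORT and 6.22, 5.61 and 6.06 TPM with Veh (limma adjusted p = 0.296). St3gal1, B4galt1 and Galnt12 were also higher with CORT, with log2 fold changes of 0.41, 0.37 and 0.38 (limma adjusted p = 0.217, 0.239 and 0.191). On the lower side, Chst4, a sulfotransferase, was at 12.9 ± 1.00 TPM against 18.9 ± 3.98 TPM (limma adjusted p = 0.176), Gcnt3 (core 2 branching enzyme) was at 7.92 ± 1.00 TPM against 12.5 ± 0.474 TPM (SD, n = 3 each), Galnt2 at 6.35 ± 1.07 TPM against 10.9 ± 1.27 TPM, and B3gnt7 at 17.6 ± 2.56 TPM against 28.4 ± 4.07 TPM, CORT first (limma adjusted p = 0.0722, 0.0778 and 0.0909). B4galnt2, the second most abundant of the list, was at 154 TPM in the CORT-treated and 203 TPM in the vehicle-treated group on average, with overlap. St3gal4, Gcnt3, Galnt2, B3gnt7, Chst4, Galnt12, St3gal1, B4galt1 and Fut4 had an unadjusted p under 0.05, against 19.2% of all genes tested. Fut4 overlapped between groups (log2 fold change 0.80, limma adjusted p = 0.219). Of the list, 11 genes had positive and 11 negative log2 fold changes, and its median log2 fold change was -0.017.

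Of 13 genes of protein folding in the endoplasmic reticulum, through which mucins pass, 0 were called by limma and 3 had an unadjusted p under 0.05, a share near the 19.2% of all genes tested. Of the 13, 12 had negative log2 fold changes, with a median of -0.17, and of all 13607 genes tested 7009 had negative ones. Xbp1, the transcription factor of the unfolded protein response in secretory cells, was at 104, 122 and 94.6 TPM with CORT and 160.49, 155 and 140.41 TPM with Veh (limma adjusted p = 0.118). P4hb was at 1494 TPM and Calr at 409 TPM on average in the CORT-treated group, both within overlapping ranges. Plasma cells secrete through the same compartment. All 4 plasma cell genes read were lower in every CORT library, as were 3 of the 13 folding genes, while the other folding genes overlapped between groups. Of all 13607 genes tested, 1940 were lower in every CORT library, and 26.4% were without overlap in either direction. The summed level of 4 plasma cell genes was 5550.22 to 8774 TPM with CORT and 16959 to 20598 TPM with Veh, and Igha and Igkc were called as lower (limma adjusted p = 0.0272 and 0.0302). Their calls were kept in 5 (Igha) and 4 (Igkc) of 13 alternative fits, of which 2 and 1 were among the 6 that left out a library. The part of plasma cells in the levels of the folding genes was not tested.

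Of 10 genes of Notch signaling and lineage choice, all were tested and 0 were called by limma. An unadjusted p under 0.05 was reached by 2 of the 10, a share near the 19.2% of all genes tested. Of the 10, 3 were higher and 1 was lower in every CORT library, while 26.4% of all genes tested were without overlap. Dll1, the Notch ligand of secretory progenitors, was at 16.7, 17.5 and 17.5 TPM with CORT and 14.1, 8.19 and 12.4 TPM with Veh. Jag1, another Notch ligand, was at 3.19, 4.33 and 3.08 TPM against 2.16, 2.18 and 1.80 TPM. Neither overlapped between groups, and neither passed (limma adjusted p = 0.181 for Dll1 and 0.147 for Jag1). Hes1, the Notch target that represses Atoh1, was at 12.8, 18.5 and 15.8 TPM against 14.4, 11.6 and 10.9 TPM, with overlap.

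**Figure D4:**
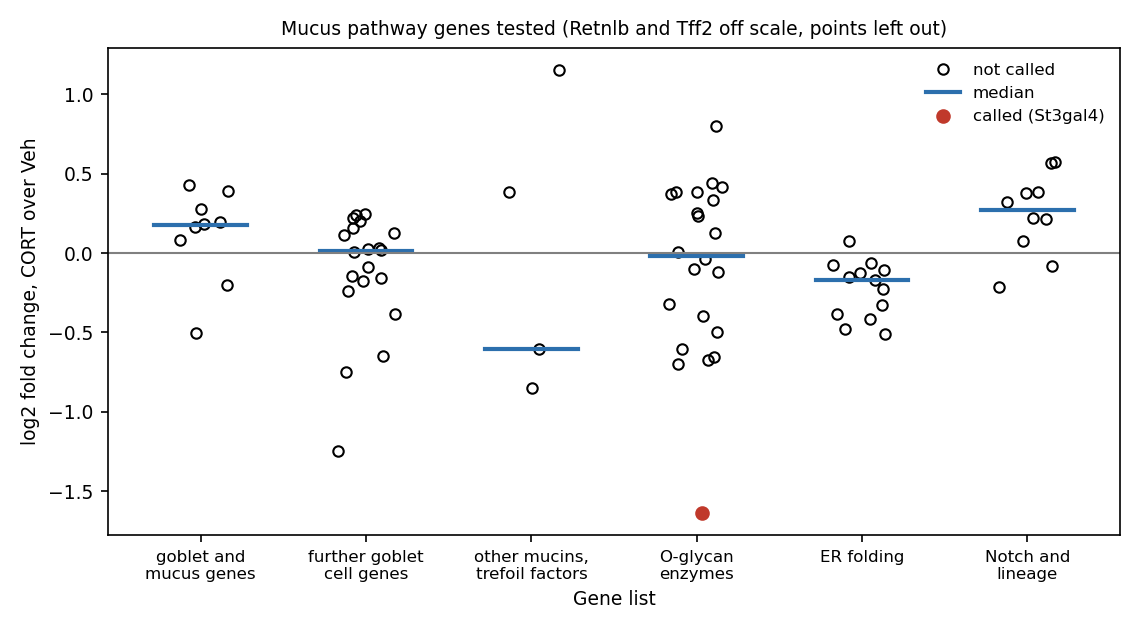
Log2 fold change of CORT over Veh for each tested gene of the goblet and mucus genes and of 5 lists of the mucus pathway. Each circle is a gene, the filled circle is St3gal4, the only gene called, and horizontal lines are medians over all tested genes of a list, Retnlb and Tff2 included, whose points are off the scale.

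Among the other secretory lineages, none of 8 Paneth cell, 9 enteroendocrine or 6 tested tuft cell genes was called. At an unadjusted p under 0.05 the enteroendocrine genes Gip and Sct passed, against 19.2% of all genes tested. The summed level of the Paneth cell genes was 10954 to 29896 TPM with CORT and 9645 to 23558 TPM with Veh, a wider spread within groups than that of the 10 goblet and mucus genes, which summed to between 11254 and 15428 TPM. Of 12 absorptive enterocyte genes 0 were called by limma and 4 had an unadjusted p under 0.05, against 19.2% of all genes tested. The summed level of the 12 was 59530 to 69680 TPM with CORT and 33979 to 50245 TPM with Veh. Most of this sum came from Apoa4, Apoa1 and Fabp1, with means over the 6 libraries of 14714, 14563 and 10741 TPM. Of the 12, 7 had positive and 5 negative log2 fold changes, the latter being Alpi, Anpep, Vil1, Sis and Slc2a2. The 7 epithelial genes, used as a scale, summed to 3981 to 5011 TPM with CORT and 5147 to 5633 TPM with Veh. These sums did not overlap, so dividing by them raised CORT relative to Veh values for every gene. This scaling called 3 enterocyte genes as higher, Apoa4, Apoa1 and Fabp1, which encode apolipoproteins and a fatty acid binding protein (limma adjusted p = 0.0172, 0.0166 and 0.0492). For Muc2 it gave a log2 fold change of 0.67 (limma adjusted p = 0.0528), against a median of 0.21 over all genes tested in that fit. The summed levels of 4 T cell genes overlapped between groups (45.9 to 53.8 TPM and 43.2 to 62.1 TPM), and so did those of 6 smooth muscle genes (298 to 484 TPM and 451 to 902 TPM). All 6 smooth muscle genes had negative log2 fold changes, with a median of -0.65, and 0 were called by limma. Acta2, Des and Actg2 had an unadjusted p under 0.05, against 19.2% of all genes tested. Des and Actg2 were lower in every CORT library, while 26.4% of all genes tested were without overlap in either direction.

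Relatives of the members were read as whole gene families by symbol after their values had been seen, so they are given without a test. Of the 8 Clca genes in the table, which lie side by side with Clca1 in the genome, 5 were above 5 TPM in at least 1 group. Clca4a was at 116, 184 and 146 TPM with CORT and 85.0, 28.8 and 37.1 TPM with Veh. Clca3a1 was at 5.60, 9.20 and 11.8 TPM against 1.37, 1.80 and 2.31 TPM. Both were higher in every CORT library. Clca3b was lower in every CORT library, at 46.9, 37.7 and 38.3 TPM against 139, 57.2 and 142 TPM. Clca4b overlapped between groups, like Clca1, with means of 266 and 257 TPM. Reads can be split among such similar copies. Agr3, the relative of Agr2, was at 2.66, 4.52 and 5.20 TPM with CORT and 1.39, 0.46 and 0.90 TPM with Veh, again without overlap. Its mean reached 1 TPM only with CORT and was 0.917 TPM with Veh, near the floor. Of all genes tested, 26.4% were without overlap, and these family genes were picked after their values were seen. Of the resistin-like genes next to Retnlb, Retnla was at most 2.97 TPM and Retnlg at most 15.9 TPM, both reached in Veh2.

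**Figure D5:**
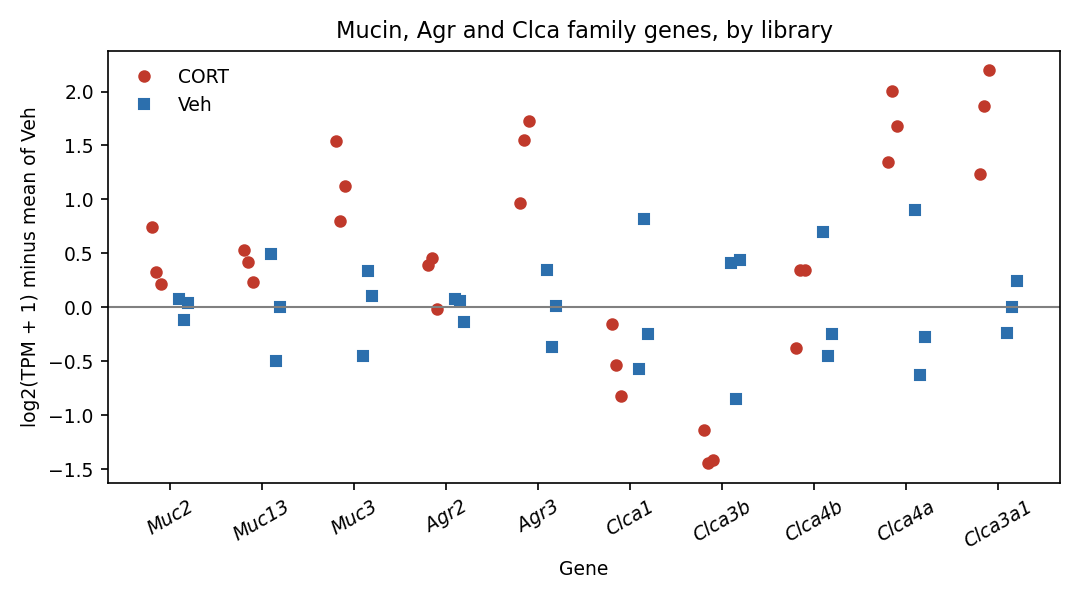
Log2(TPM + 1) of 10 genes of the mucin, Agr and Clca families in each duodenum library, relative to the mean of the Veh libraries (0 on the axis). Circles are CORT and squares Veh libraries. Clca4a, Clca3a1, Agr3, Muc3 and Muc2 lie higher and Clca3b lower in every CORT library, while Clca1, Clca4b, Agr2 and Muc13 overlap. Agr3 reached a mean of 1 TPM only with CORT.

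In the liver of mice of the same experiment, again with 3 CORT and 3 Veh libraries, 9 of the 10 genes were below 1 TPM in all 6 libraries, with 0.54 TPM as the highest value. Tff3 was the exception, at 65.5, 21.1 and 425 TPM with CORT and 25.9, 346 and 57.5 TPM with Veh. Its liver values varied widely within both groups and were not tested.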

How the data were processed

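Total RNA of frozen duodenum was sequenced by the authors as paired-end TruSeq libraries. Per the methods, trimming used SeqPrep and Sickle and alignment HISAT2; StringTie assembly and RSEM quantification followed. The submitters' notes name GRCm39, and tool versions are not given in the sources used here. Each deposited column holds TPM for 1 library, so depth is unknown. Columns were matched to samples by the sample descriptions, and replicates are labelled as biological.

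TPM were transformed to log2(TPM + 1). The filter kept 13607 genes, those reaching a mean of 1 TPM with CORT or with Veh. Treatment alone was modelled with limma 3.58.1 in R 4.3.3 (lmFit, eBayes with a trend), with Benjamini-Hochberg adjustment over these genes. Fold changes on this scale understate those of low genes. DESeq2, which the authors used, was not used here, since it needs read counts. The calls were tried on simulated duodenum data of 13607 genes. When 200 genes were given a log2 change of 2, 163 were recovered, with 10 false calls besides. When 200 were given a log2 change of 1, 61 were recovered, with 1 false call. A separate run in which no gene was changed gave 0 calls. The simulation drew each gene independently and held no differences between libraries shared by many genes, such as those of the acinar genes. Its false calls therefore may not describe the real libraries.

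The genes and lists were chosen with earlier results of these data known. Named genes were the 10 members, called genes and the 2 most abundant of each mucus pathway list, the 5 genes most like Muc2, and Fkbp5; others, among them genes without overlap, gene families and genes high in Veh2, were chosen after their values were seen. The other cell types are given mainly as summed levels. Alternatives were a pseudocount of 0.1, no filter, the replicate number as a block, each library left out, 3 scalings and adjusted p alone; leaving out Veh2 and Veh3 together was added after seeing the data.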

Additional observations from a re-analysis of the deposited data

How the results depend on the processing

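None of the 10 genes was called in any of the 14 alternatives. Directions turned for 5 of them: Tff3 was at -0.011 without CORT1 (range over the libraries left out -0.011 to 0.21), Fcgbp at -0.032, Clca1 at 0.071 and Muc13 at -0.098 without Veh2 and Veh3 together, and Spdef at 0.020 when scaled to epithelial genes. These log2 fold changes lie near 0. The number of genes called over the whole table was 292, and it was 52 without a filter on low values (24876 genes tested), 62 with the replicate block and 10 without Veh2 and Veh3 together. That last fit leaves Veh1 as the only Veh library, so its spread comes from the CORT libraries alone and Veh1 is assumed to vary like them; its counts and turns say nothing of stability. Leaving out 1 library gave 66 to 237. Scaling to epithelial genes, whose sum was lower in every CORT library, gave 319 higher and 63 lower genes against 167 and 125. It shifted the median of all genes by over 0.1. For the genes of the other lists, 3 were called, and 5 with a pseudocount of 0.1, 0 without a filter, 0 with the replicate block and 1 without Veh2 and Veh3 together. Scaling to epithelial genes called 4, all higher (Muc3, Apoa1, Apoa4 and Fabp1), in place of the 3 lower ones (St3gal4, Igha and Igkc). Leaving out 1 library gave 0 to 23, the 23 coming without Veh1, with 19 acinar genes among them. The replicate numbers gave correlations of deviations of 0.054, 0.073 and -0.004 for the same-numbered pairs. These values show no pairing but cannot exclude it, since differences among the Veh libraries weigh on them. The labels do not state whether the numbers pair the samples. Retnlb could not be fitted without Veh2, where it fell under the filter. With TPM, depth and counting error are unknown, and 3 libraries a group set the precision; the causes of these shifts were not tested.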

Other observations

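Veh2, the library with Retnlb and Ang4, also differed in other antimicrobial and epithelial genes, chosen after their values were seen and given without a test. Reg3b and Reg3g, antimicrobial lectins of the epithelium, were at 100.03 and 84.9 TPM in Veh2, while the other duodenum libraries held 1319 to 5779 TPM of Reg3b and 424 to 2522 TPM of Reg3g. Mptx1, a pentraxin of the intestine, was at 36.2 TPM in Veh2 and at most 1.65 TPM elsewhere. Duox2 and Duoxa2, which form the epithelial dual oxidase, were at 27.3 and 36.1 TPM in Veh2 and at most 1.5 and 1.52 TPM elsewhere. Sprr2a3, a small proline-rich epithelial protein, was at 278 TPM in Veh2, 28.7 and 36.5 TPM in the other Veh libraries and 1.56 to 4.93 TPM in the CORT libraries.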
